A study of Mus musculus with 4 samples.

Results

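The genes described here are 40 lipid genes of the mouse lung, chosen by name from a list of fatty acid and sterol synthesis genes among the 57010 genes of the count matrix. They were read in 4 groups. The fatty acid branch has 11 genes, the sterol branch 16, the control genes of the SREBP transcription factors 5, and a group of lipid transport and glycerolipid genes 8. All 40 were in the gene table, and levels were taken over barcodes with at least 500 genes, by cell class and by pool of mice.

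The study profiled lung cells by SPLiT-seq, a method that labels fixed cells through rounds of well barcodes and counts transcripts by unique molecular identifiers (UMIs). Cre_Pos pools lung cells from 6 animals with Shh.Cre and a p73 allele whose exons 7 to 9 are flanked by loxP sites. Cre_Neg pools lung cells from 6 littermates that lacked the Cre and were homozygous for the same floxed allele, so the floxed allele is shared by both pools. All mice were C57Bl6/J, 8 weeks old by the sample labels and 2 months old by the design text. Shh-driven Cre acts in the lung epithelium and its precursors and not in endothelium or blood cells. Cells had been depleted of CD45-positive cells, enriched for EpCAM-positive cells with beads and sorted for exclusion of DAPI. The 4 sublibraries are aliquots of the same barcoded mixture and each holds cells of both pools, so they show technical spread and not the spread between mice. With 1 pool for each genotype there is no test of genotype, and all intervals below cover counting error only.

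Cells of most tissues make fatty acids from acetyl units. ATP citrate lyase (Acly) supplies acetyl-CoA, acetyl-CoA carboxylase (Acaca, Acacb) makes malonyl-CoA, and fatty acid synthase (Fasn) builds palmitate, which desaturases (Scd1, Scd2, Fads1, Fads2) and elongases (Elovl1, Elovl5, Elovl6) modify. Sterols are built from the same acetyl units through the mevalonate pathway (Hmgcs1 to Fdps), squalene (Fdft1, Sqle) and lanosterol (Lss), which the enzymes from Cyp51 to Dhcr7 turn into cholesterol. The transcription factors encoded by Srebf1 and Srebf2 switch on both branches. They are escorted by Scap and held back by Insig1 and Insig2 when sterols are plentiful. In the lung, alveolar type 2 (AT2) cells make the surfactant lipids, among which dipalmitoyl phosphatidylcholine needs a steady supply of palmitate.

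The matrix held 191160309 UMIs in 647296 barcodes, of which 16363 were kept as cells, 7695 from Cre_Neg with a median of 8714 UMIs and 8668 from Cre_Pos with a median of 8226.5. Among kept cells, 267 combinations of well barcodes occurred in more than 1 sublibrary (538 cells), and none occurred in both pools. Clusters were named from marker lists and carry "-like" because the names rest on those markers alone. Of 34 clusters 6 stayed unnamed and are called by number. The floxed gene Trp73, which encodes p73, had most of its UMIs, among the 8 classes compared between the pools, in ciliated-like cells, at 334 CPM (the UMIs of a gene over all UMIs of its class, times 1000000) in Cre_Neg and 314 in Cre_Pos, with 1337 to 2125 and 99 to 234 UMIs per sublibrary. The counts cover the whole gene and do not show whether exons 7 to 9 were present. Ciliated-like cells numbered 1204 in Cre_Neg and 121 in Cre_Pos. Sex could be read from Xist against 4 Y-linked genes, and among cells with such a call the Y-only share in AT2-like cells was 20.6% in Cre_Neg and 12.1% in Cre_Pos, while in ciliated-like cells it was 16.7% and 96.2%. How many of the mice in a pool were male is not stated in the labels used here.

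The start regions of 4 genes on which the results turn are shown because members that lay together in the comparison of the pools could share letters there. RefSeq promoters (GRCm38.p6, 250 bases before to 50 bases after the start of the gene) were matched for 30 of the 40 genes; Scd1, Scd2, Fads1, Fdps, Fdft1, Sqle, Stard4, Fabp5, Dgat1 and Dgat2 had no entry in the table used. The 250 bases before the start are printed for Hmgcs1 (chr13:119690101-119690350, + strand), Cyp51 (chr5:4104698-4104947, - strand), Fasn (chr11:120824548-120824797, - strand) and Mfsd2a (chr4:122961189-122961438, - strand), 5′ to 3′ on the strand of the gene. Capitals mark matches, on either strand, to a sterol regulatory element (TCACNCCAC, bound by SREBP) and to the CCAAT box (bound by NF-Y), which reads ATTGG on the other strand.
Hmgcs1: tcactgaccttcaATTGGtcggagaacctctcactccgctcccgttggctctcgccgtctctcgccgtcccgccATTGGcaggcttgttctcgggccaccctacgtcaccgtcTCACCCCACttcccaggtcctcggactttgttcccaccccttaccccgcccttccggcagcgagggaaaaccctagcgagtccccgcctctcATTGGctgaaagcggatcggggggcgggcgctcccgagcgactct
Cyp51: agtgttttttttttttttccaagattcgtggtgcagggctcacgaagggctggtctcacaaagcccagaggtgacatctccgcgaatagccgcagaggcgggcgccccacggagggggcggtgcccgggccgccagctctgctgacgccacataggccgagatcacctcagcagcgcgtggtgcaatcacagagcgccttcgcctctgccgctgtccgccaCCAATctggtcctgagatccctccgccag
Fasn: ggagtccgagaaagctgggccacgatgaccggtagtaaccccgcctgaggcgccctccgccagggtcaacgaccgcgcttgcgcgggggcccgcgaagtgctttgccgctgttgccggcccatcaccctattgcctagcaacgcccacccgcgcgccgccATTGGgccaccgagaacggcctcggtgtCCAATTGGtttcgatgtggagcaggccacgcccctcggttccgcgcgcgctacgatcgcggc
Mfsd2a: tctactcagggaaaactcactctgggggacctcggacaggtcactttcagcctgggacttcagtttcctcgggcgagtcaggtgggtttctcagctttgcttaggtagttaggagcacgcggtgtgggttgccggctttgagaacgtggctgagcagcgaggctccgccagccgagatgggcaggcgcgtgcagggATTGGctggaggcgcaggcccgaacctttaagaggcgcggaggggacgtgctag

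A gene can have several promoters in the table and was counted where any of them held the letters. The CCAAT letters stood in all 13 matched sterol genes, in 5 of 8 matched fatty acid genes, in 4 of 5 SREBP control genes (all but Scap) and in 3 of 4 transport and glycerolipid genes, against 41.1% of the 27025 genes of the table. The GC box GGGCGG stood in 12 of the 13 sterol genes and 3 of the 8 fatty acid genes, against 38.2% of all. The sterol regulatory element in this exact spelling stood in Hmgcs1 alone among the 30 genes and in 1.44% of all genes. The E-box CACGTG stood in Elovl5, Hsd17b7, Sc5d, Dhcr7, Scap and Insig1, and in 8.09% of all genes. Both strands were searched, and a CCAAT box and one on the other strand can share bases, as a pair in Fasn does. In the printed stretches Hmgcs1 has 3 CCAAT boxes and 1 sterol regulatory element, Fasn has 3 CCAAT boxes, and Cyp51 and Mfsd2a have 1 each. These matches are descriptions of letters in a window.

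Across cell classes, the fatty acid branch was concentrated in AT2-like cells. The 11 genes summed to 5809 CPM in AT2-like cells, against 1917 in cluster 10, a cluster led by the secretory genes Scgb1a1 and Cyp2f2 that also carries AT2 markers, and 1604 in AT1-like cells (51 cells). Among the remaining classes with at least 50 cells the sum ran from 925 in cluster 22 down to 353 in ciliated-like cells, 309 in cluster 21 and 183 in neutrophil-like cells. The sterol branch was flatter. Its 16 genes summed to 491 CPM in AT2-like cells, 451 in neuroendocrine-like cells, 435 in cluster 22 and 395 in alveolar macrophage-like cells, and to 126 in blood endothelium-like cells. In the sublibraries the sterol sum of AT2-like cells (429 to 484 in Cre_Neg) overlapped that of neuroendocrine-like cells (324 to 552 in Cre_Neg), so these neighbours in the order do not differ beyond their spread. The fatty acid sum of AT2-like cells (5094 to 5684 in Cre_Neg) lay far above the range of cluster 10 (1151 to 2420 in Cre_Neg).

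Gene by gene, AT2-like cells ranked first for Acly, Acaca, Fasn, Scd1 and Elovl1 of the fatty acid branch. Scd1, which puts the first double bond into palmitate and stearate, stood at 3209 CPM in AT2-like cells, 160 times the median class. Fasn stood at 951 CPM, 20.6 times the median class, and the next class was cluster 10 at 292. Elovl1, an elongase of very long chains, was 12.7 times the median class, and Acaca 5.999 times. Scd2, the desaturase isoform, had another leader: it was at 1196 CPM in AT1-like cells and 372 in AT2-like cells. Acacb, the mitochondrial carboxylase, was highest in lymphatic endothelium-like cells (66.1 CPM), and Elovl5, an elongase of polyunsaturated chains, in blood endothelium-like cells (357). Elovl6, which takes palmitate to stearate, was nearly absent from AT2-like cells, at 0.464 CPM from 22 UMIs, while the median class was at 22.7 and cluster 23 and neuroendocrine-like cells were at 90.6 and 85.4. Fads1 and Fads2, the desaturases of polyunsaturated chains, were highest in cluster 28 (84.8) and cluster 27 (149.5). For Fads1, fibroblast-like cells came next at 74.5. That lies inside the cluster 28 counting interval of 59.9 to 160 in Cre_Neg, so its leading class is not settled.

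Sterol genes were spread over more classes. Of the 16, Hmgcs1, Idi1, Fdps, Lss and Nsdhl were highest in AT2-like cells, where their levels over the median class ran from 1.81 times (Nsdhl) to 3.84 times (Fdps). Pmvk, at 5.95 times, and Mvd, at 3.85 times, stood further above the median class although other classes led in them. Pmvk and Fdft1, the phosphomevalonate kinase and squalene synthase, were highest in neuroendocrine-like cells at 55.1 and 68.5 CPM, and AT2-like cells came next with 34.2 and 68.3. Sqle, the squalene epoxidase, and Ebp, a sterol isomerase, were high in cells with cilia genes: Sqle at 76.4 CPM in cluster 21 and 67.7 in ciliated-like cells against 31.1 in AT2-like cells, and Ebp at 32.3 CPM in ciliated-like cells against 4.41 in AT2-like cells. Cyp51 and Msmo1, the first demethylases after lanosterol, were highest in cluster 22 (65.9 and 34.6). Mvd and Dhcr7, the mevalonate decarboxylase and the last reductase, were highest in alveolar macrophage-like cells (26.4 and 16.6). That class had 201 cells in Cre_Neg and 3 in Cre_Pos, so its levels come almost wholly from Cre_Neg. Mvk and Hsd17b7 were highest in fibroblast-like cells (11.6 and 20.4). Sc5d was at 83.6 in neutrophil-like cells, but from 16 UMIs, with a counting interval of 44.0 to 135 in Cre_Neg. Fibroblast-like cells, at 58.0 from 236 UMIs, lie inside that interval, so the leading class of Sc5d is not settled.

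Among the control genes, Srebf1 was highest in AT2-like cells (92.2 CPM). Srebf2 was at 237.9 in B cell-like cells and 237.3 in cluster 22, against 173 in AT2-like cells. Scap and Insig1 were highest in neuroendocrine-like cells (71.4 and 85.4), with Scap at 70.1 in T cell-like cells. Insig2 was highest in cluster 21 (72.2). Over the median class, AT2-like cells were 3.63 times as high in Insig1, 2.68 in Srebf1, 1.66 in Srebf2 and 1.63 in Insig2. Of the transport and glycerolipid genes, Acoxl, a peroxisomal acyl-CoA oxidase-like gene, was the gene closest to an AT2 marker: 1149 CPM in AT2-like cells, 377 times the median class, and 77.7 in the next class. Gpam, the mitochondrial glycerol-3-phosphate acyltransferase, was at 367 CPM (22.0 times the median class), Acsl4, a long-chain acyl-CoA synthetase, at 852 (7.49 times), and Mfsd2a, a transporter of lysophosphatidylcholine, at 14.7 with the median class at 0. Fabp5 and Dgat2 were highest in alveolar macrophage-like cells (33.2 and 36.5), Stard4, a cholesterol carrier, in blood endothelium-like cells (39.2), and Dgat1 in cluster 28 (483.7), a cluster with the histidine decarboxylase gene Hdc among its leading genes. Fabp5, a fatty acid carrier, nevertheless stood at 31.4 CPM in AT2-like cells, 35.4 times the median class. Free RNA, read from barcodes with at most 50 UMIs, held Scd1 at 961 CPM in Cre_Neg and 918 in Cre_Pos, Acoxl at 331 and 298, Fasn at 165 and 174 and Mfsd2a at 2.82 and 3.92. The first 3 exceed the levels of these genes in many classes, and the part of free RNA in those levels was not tested.

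AT2-like cells were not uniform. Among the 5 clusters of the class, the fatty acid sum was 7939 CPM in cluster 3 (1382 cells) and 4863 in cluster 2 (1605 cells). It was 2588 in cluster 9 (422 cells), led by Ndnf, 5946 in cluster 24 (110 cells) and 2926 in cluster 32 (47 cells). Acoxl was among the leading genes of clusters 3 and 24, and Lyz2 among those of all but cluster 9. Scd1 was at 4616, 2528 and 1296 CPM in clusters 3, 2 and 9, and Acoxl at 2007, 706 and 45.9. The sterol sum of clusters 3, 2 and 9 ran in the same order with a narrower range, at 615, 419 and 358 CPM. The genes had been left out of clustering, but genes that vary with them had not, so these differences are a description. Cluster 3 held 848 of the 2083 AT2-like cells of Cre_Neg and 534 of the 1483 of Cre_Pos.

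Between the pools, lipid synthesis genes were higher in Cre_Pos than in Cre_Neg AT2-like cells, by a small amount in both branches. Cells numbered 2083 and 1483, with medians of 11460 and 14249 UMIs. The fatty acid sum was 5158, 5565, 5684 and 5094 CPM in the 4 Cre_Neg sublibraries and 6088, 6028, 6061 and 7048 in Cre_Pos. The sterol sum was 429, 439, 484 and 451 CPM in Cre_Neg and 489, 534, 528 and 596 in Cre_Pos. In both sums every Cre_Pos sublibrary lay above every Cre_Neg one, and sublibrary 4 of Cre_Pos stood above the rest. Of the 11 fatty acid genes 10 were higher, with a median log2 ratio of 0.22, and of the 16 sterol genes 14 were higher, also with a median of 0.22. All 5 control genes (median 0.17) and 7 of the 8 transport and glycerolipid genes (median 0.15) were higher. Over all 15263 genes with at least 20 UMIs in the class, 53.4% were higher and the median was 0.02. At least 1.2-fold higher were 10 of the 40 genes and at least 1.2-fold lower none, against 14.1% and 13.8% of all genes.

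**Figure D1:**
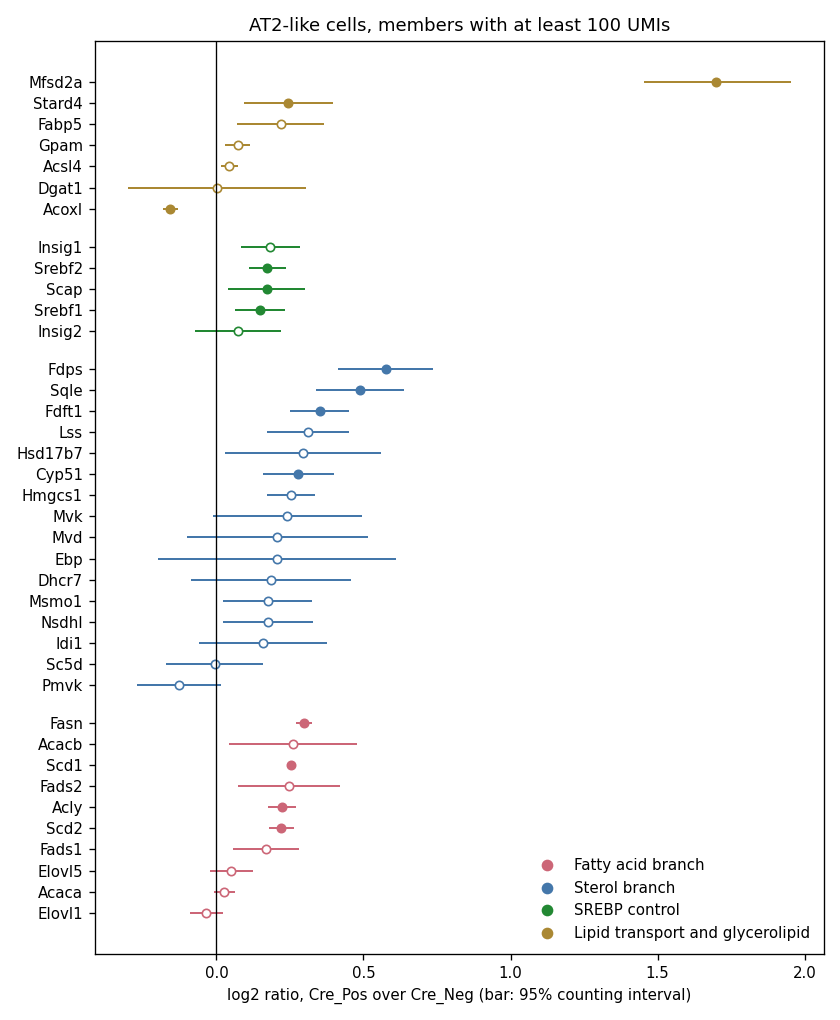
Log2 ratio of Cre_Pos over Cre_Neg in AT2-like cells for the 38 genes with at least 100 UMIs, with 95% counting intervals, in 4 groups. Filled points are genes whose 4 sublibraries of 1 pool lay all above or all below those of the other; Mfsd2a is at 1.70 and Acoxl at -0.16, and the other points lie between -0.13 (Pmvk) and 0.58 (Fdps).

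In the fatty acid branch the separation lay with Acly, Fasn, Scd1 and Scd2. Fasn was at 807, 876, 914 and 829 CPM in Cre_Neg and at 1042, 1055, 1026 and 1102 in Cre_Pos, and the pools did not overlap. Its log2 ratio was 0.30 (95% counting interval 0.27 to 0.33). Scd1 was at 2808, 3106, 3136 and 2659 CPM in Cre_Neg and at 3330, 3282, 3343 and 4170 in Cre_Pos, for a ratio of 0.25 (0.24 to 0.27). In Scd1 the fourth sublibrary held both the lowest Cre_Neg and the highest Cre_Pos value, and within sublibraries the log2 ratio was 0.25, 0.08, 0.09 and 0.65. Acly was at 269 and 314 CPM over the pools (0.22, 0.17 to 0.27) and Scd2 at 346 and 403 (0.22, 0.18 to 0.26). Acaca, the carboxylase between Acly and Fasn, was at 542 and 552 CPM (0.03, -0.01 to 0.06), Elovl1 was the lowest at -0.03 (-0.09 to 0.02), and Elovl5 was at 0.05. Fads1 (0.17), Fads2 (0.25) and Acacb (0.26) had sublibraries that overlapped, and Elovl6, at 8 and 14 UMIs, cannot be placed (1.00, -0.35 to 2.46). Genes whose Cre_Pos sublibraries all lay above Cre_Neg were 5.31% of all genes in the class, and 4.15% lay all below.

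In the sterol branch the largest ratios lay in the middle of the pathway. Fdps, the farnesyl diphosphate synthase, was at 20.9, 19.9, 24.5 and 23.8 CPM in Cre_Neg and at 30.8, 30.6, 31.6 and 39.9 in Cre_Pos, which gave 0.58 (0.42 to 0.74). Sqle was at 24.1, 25.5, 28.3 and 27.0 CPM in Cre_Neg and at 34.4, 39.0, 34.8 and 38.1 in Cre_Pos (0.49, 0.34 to 0.64). Fdft1 was at 53.7, 65.9, 61.5 and 59.5 CPM in Cre_Neg and at 67.7, 75.7, 75.3 and 90.4 in Cre_Pos (0.35, 0.25 to 0.45). These enzymes lead from isoprenoids to squalene epoxide, and in each the pools did not overlap. Cyp51, the lanosterol demethylase, was at 43.6 and 52.9 CPM over the pools without overlap (0.28, 0.16 to 0.40). Lss (0.31), Hsd17b7 (0.29) and Hmgcs1 (0.25) were higher in each of the 4 sublibraries, but their pools overlapped. The lowest were Pmvk at -0.13 (-0.27 to 0.02) and Sc5d at -0.01 (-0.17 to 0.16). Of the 16 sterol genes 9 had an interval above 0 and 0 had one below, against 14.5% and 10.9% of all 15263 genes. Intervals narrow with more UMIs: the sterol genes held 209 to 4924, while all genes were counted from 20 UMIs up. No share at matched UMIs was taken, so these shares are not like for like. All 13 matched genes of this branch held the CCAAT letters, Lss as well as Pmvk, so these letters cannot separate its high genes from its low ones. Fdps, Sqle and Fdft1 had no promoter entry.

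Srebf2, the factor best known for the sterol branch, was at 159, 154, 167 and 176 CPM in Cre_Neg and at 196, 179, 181 and 183 in Cre_Pos (0.17, 0.11 to 0.24). Srebf1 (0.15, 0.06 to 0.23) and Scap (0.17, 0.04 to 0.30) also did not overlap. Insig1, a target of the pathway that restrains it, was at 0.18 (0.08 to 0.28) and Insig2 at 0.07 (-0.07 to 0.22).

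Mfsd2a had the largest ratio of the 40 genes. It was at 7.19, 8.69, 7.57 and 4.62 CPM in the Cre_Neg sublibraries and at 24.6, 17.9, 19.1 and 33.4 in Cre_Pos, from 181 and 515 UMIs. The log2 ratio was 1.70 (1.45 to 1.95), a 3.25-fold difference, above 99.7% of the genes in the class. The most UMIs in 1 cell were 8 and 19, and the 10 highest cells held 22.7% and 25.4% of the UMIs. It was higher in Cre_Pos in cluster 2 (3.88 and 8.11 CPM), cluster 3 (12.1 and 46.8) and cluster 9 (0.852 and 7.39). Neuroendocrine-like cells, the next class for this gene, went the other way: 16.2, 6.67, 19.5 and 35.6 CPM in Cre_Neg and 1.49, 1.15, 4.72 and 5.23 in Cre_Pos, from 29 and 10 UMIs (-2.42, -3.62 to -1.34). Of these UMIs, 8 and 9 lay in Xist-only cells, where the interval spanned 0 (-1.07, -2.61 to 0.51). Y-only neuroendocrine-like cells (27 and 12) held 11 and 1. Both splits were under the 20 UMIs needed to be measured, and the part of sex or mouse in the reversal was not tested.

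The remaining transport and glycerolipid genes showed little. Stard4 was at 27.9 and 33.0 CPM without overlap (0.24, 0.09 to 0.40) and Fabp5 at 29.2 and 34.0 (0.22, 0.07 to 0.37). Gpam was at 0.07, Acsl4 at 0.04, Dgat1 at 0.00, and Dgat2 at 0.29 from 58 UMIs (-0.50 to 1.09). Acoxl was the single gene of the 40 that was lower in Cre_Pos in all 4 sublibraries without overlap, at 1207 and 1083 CPM (-0.16, -0.18 to -0.13). Within cluster 3, which holds most of its UMIs and was a smaller share of Cre_Pos cells, Acoxl was at 2006 and 2009 CPM.

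**Figure D2:**
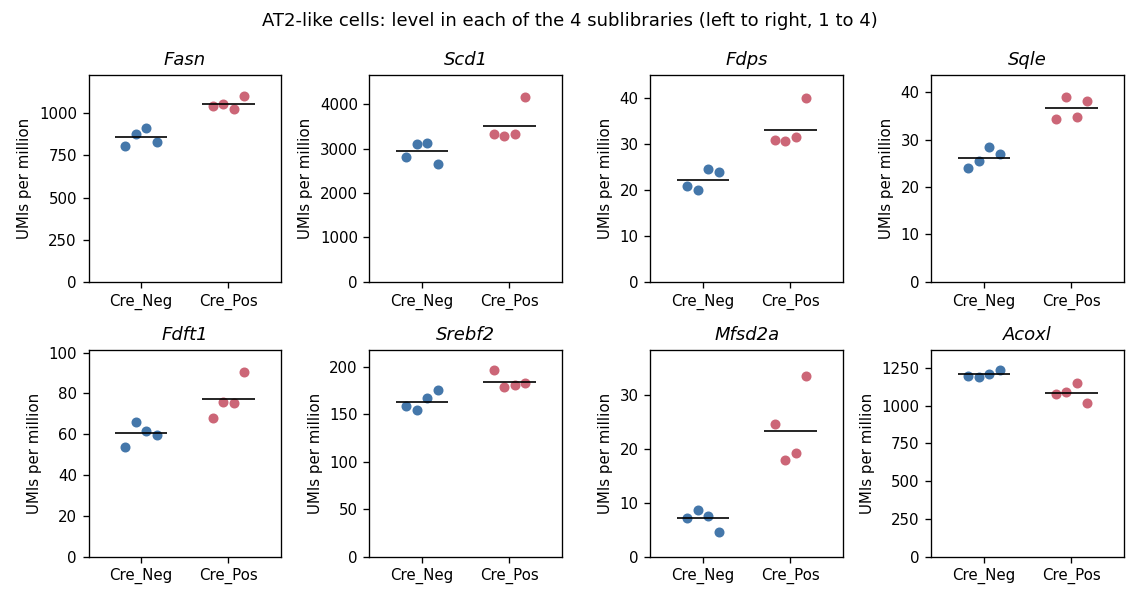
Level (CPM, axes from 0) of 8 genes in AT2-like cells in each of the 4 sublibraries of Cre_Neg (blue) and Cre_Pos (red), sublibraries 1 to 4 from left to right, with the pool's value as a line. The pools do not overlap in any of the 8, and the highest Cre_Pos value of Scd1, Fdps, Fdft1 and Mfsd2a is that of sublibrary 4.

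Several measures moved with this difference. Without sublibrary 4 the median of the fatty acid branch was 0.11 and that of the sterol branch 0.19. Among cells of 8000 to 20000 UMIs, a window added after the data were seen because Cre_Pos cells were deeper, the medians were 0.11 and 0.17, and 4 in place of 10 genes were at least 1.2-fold higher. Within clusters the fatty acid medians were 0.22 in cluster 2, 0.22 in cluster 3 and 0.17 in cluster 9, and the sterol medians 0.34, 0.29 and 0.25. Cluster 32 (29 and 18 cells) went the other way, with a fatty acid median of -0.10 (3 of 9 measured genes higher) and a sterol median of -0.14 (1 of 5). The intervals of both its sums spanned 0. In cluster 24, the 110 shallowest cells, the fatty acid sum was 3352 CPM in Cre_Neg and 10019 in Cre_Pos. In AT2-like cells the 12 AT2 markers summed to 42379 CPM in Cre_Neg and 41913 in Cre_Pos (40344 to 43486 and 41378 to 42679 over sublibraries). The 12 secretory markers summed to 202 and 125 CPM (119.97 to 403 and 104 to 169), and 7 of 8 measured ones were lower in Cre_Pos. The 12 alveolar macrophage markers summed to 43.0 and 39.8 CPM, with 2 of 4 measured ones higher, overlapping ranges and Siglecf at 0 in both pools. The 16 immediate early genes summed to 1155 and 1047 CPM with 2 of 16 higher, and 13 mitochondrial protein genes to 2109 and 1690 with 1 of 7 measured ones higher. The part of these signs in the result was not tested.

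The direction was not the same in cells of both sexes. Among Xist-only AT2-like cells (1487 in Cre_Neg, 1188 in Cre_Pos) the fatty acid sum was 5533 and 6586 CPM and the sterol sum 476 and 580. There, all 10 measured fatty acid genes and 14 of 16 sterol genes were higher in Cre_Pos, with medians of 0.24 and 0.25, while 51.1% of all genes were higher. Among Y-only AT2-like cells (386 and 163) the fatty acid sum was 4844 CPM in Cre_Neg and 4278 in Cre_Pos, and the sterol sum 369 and 252. In those cells 3 of 10 measured fatty acid genes and 1 of 16 sterol genes were higher, with medians of -0.11 and -0.46, while 60.3% of all genes were higher and their median was 0.09. In both pools the sums were lower in Y-only than in Xist-only cells.

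In Y-only cells Hmgcs1, the first sterol enzyme of the list, was at -0.63 (-0.92 to -0.36), Cyp51 at -0.51 (-0.94 to -0.10), Fdft1 at -0.39 (-0.76 to -0.03), and Scd1 at -0.22 (-0.27 to -0.17). Elovl1 was at -0.89 (-1.08 to -0.70) and Pmvk at -1.62 (-2.36 to -0.95), both near 0 in Xist-only cells (0.07 and -0.02). Srebf1 was higher there (0.38, 0.14 to 0.62), while Srebf2 was at -0.27 (-0.47 to -0.08). Mfsd2a had 12 and 7 UMIs in Y-only cells, under the 20 needed to be measured, and 158 and 474 in Xist-only cells (1.63, 1.37 to 1.90).

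The sterol median of Y-only cells was below 0 in each sublibrary, from -0.73 to -0.32, and that of Xist-only cells above 0, from 0.12 to 0.54. The fatty acid median of Y-only cells ran from -0.27 to 0.04. Median depths were 11349 and 14792 UMIs in Y-only cells and 11730 and 14253 in Xist-only cells. Cluster 3 was 33.4% of Cre_Neg and 17.8% of Cre_Pos Y-only cells, and 43.6% and 40.1% of Xist-only cells. Within cluster 2 the fatty acid sum of Y-only cells was equal in the pools (4387 and 4391 CPM), and the sterol sum was lower in Cre_Pos (303 and 243). Within cluster 3 of Y-only cells the fatty acid sum was higher in Cre_Pos (6287 and 6931 CPM, from 129 and 29 cells), and the sterol sum lower (484 and 351). Within cluster 9 both were lower in Cre_Pos, the fatty acid sum at 2357 and 2074 CPM (-0.18, -0.31 to -0.06) and the sterol sum at 285 and 207, from 39 and 35 cells. Cells of 1 sex in a pool may come from few mice, and sex and mouse cannot be told apart. Ebp, Nsdhl and Acsl4 lie on the X chromosome, and the other 37 genes do not.

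**Figure D3:**
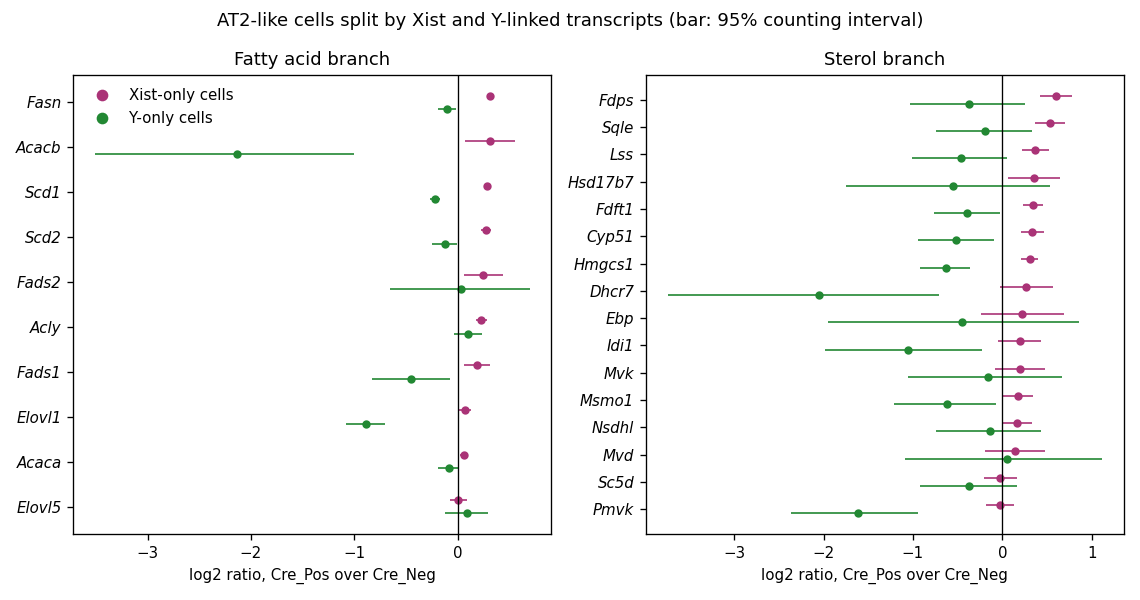
Log2 ratio of Cre_Pos over Cre_Neg in AT2-like cells with Xist UMIs and no Y-linked UMIs (purple) or the reverse (green), with 95% counting intervals, for the 10 fatty acid and 16 sterol genes with at least 20 UMIs in each split. Purple points lie near or to the right of 0, and the green points of 15 of 16 sterol genes lie to its left.

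The wider pathway was read from lists of genes outside the 40. Of the other sterol synthesis genes 4 of 6 were higher in Cre_Pos AT2-like cells (median 0.18). Of the other fatty acid synthesis genes 7 of 11 measured were higher (median 0.04). Sterol uptake and export genes were higher in 7 of 9 (median 0.11). The cholesterol exporter Abca1 was the lowest of them at -0.44 (-0.55 to -0.33), and Abcg1, at only 0.67 CPM in the class, the highest at 0.93. Surfactant phospholipid synthesis genes were higher in 5 of 9 (median 0.03), with Lpin1 at 0.35 (0.21 to 0.48) and Chka at -0.15. Fatty acid oxidation genes were lower in 8 of 11 (median -0.06), with the carnitine transferase Cpt1a at -0.25 (-0.36 to -0.13). The differences between these lists were not tested.

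In blood endothelium-like cells, a class in which Shh-driven Cre does not act, the medians of both branches had the other sign. Other classes outside the epithelium were mixed. Fibroblast-like and monocyte-like cells had sterol medians of 0.37 and 0.64, the latter carried by sublibrary 2, and B cell-like cells one of -0.34. Blood endothelium-like cells numbered 2728 and 5609, and at a median of 5839.5 and 7149 UMIs the Cre_Pos cells were deeper here too. Of 11 fatty acid genes 3 were higher in Cre_Pos (median -0.10) and of 16 sterol genes 4 were higher (median -0.13), while 48.0% of all 15495 genes were higher and their median was -0.01. Scd2 was at 42.0, 41.7, 40.6 and 35.1 CPM in Cre_Neg and at 32.9, 31.6, 32.9 and 31.01 in Cre_Pos, without overlap (-0.32, -0.45 to -0.18). Fasn, at 7.99 and 5.91 CPM, was at -0.43 (-0.73 to -0.13), and with called doublets kept it was at 0.23. Elovl6 was lower in 3 of 4 sublibraries (-0.31, -0.53 to -0.09) and Nsdhl in 2 of 4 (-0.32, -0.55 to -0.09), while the interval of Sqle spanned 0 (-0.39, -0.77 to 0.0098). Acaca was higher, at 47.2 and 55.7 CPM (0.24, 0.13 to 0.35), and Mvk was the highest sterol gene (0.21, -0.12 to 0.55). The summed fatty acid level, carried by Elovl5, was 612 and 631 CPM (0.04, 0.01 to 0.08), so the sum and the median had opposite signs. The 16 immediate early genes summed to 1872 CPM in Cre_Neg and 2594 in Cre_Pos, with 13 of 16 higher. Their part in the result was not tested.

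Insig1 was at -0.26 (-0.51 to 0.0009) and Insig2 at 0.13 (-0.05 to 0.30) in these endothelial cells, Fabp5 at -0.26 from 31 UMIs, and Acoxl, at 2.11 and 3.32 CPM, at 0.66 (0.13 to 1.21). In Y-only endothelial cells (353 and 157) the sterol median was 0.34 and the fatty acid median -0.19.

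Ciliated-like cells, of which 121 were left in Cre_Pos, had 7 of 10 measured fatty acid genes higher (median 0.05) and 10 of 15 sterol genes higher (median 0.32), while 53.3% of all 14448 genes were higher. The fatty acid median was -0.02 with the sublibrary as a block and ran from -0.0584 to 0.20 with a sublibrary left out. Fasn was at 40.9, 35.3, 34.7 and 33.1 CPM in Cre_Neg and at 67.9, 43.4, 47.4 and 51.1 in Cre_Pos, without overlap (0.55, 0.27 to 0.83). Scd2 was at 76.1 and 99.8 CPM, also without overlap (0.39, 0.18 to 0.59). Fdft1 (0.59, 0.10 to 1.05), Hmgcs1 (0.37, 0.10 to 0.64) and Srebf1 (0.36, 0.06 to 0.64) overlapped between the pools. Cyp51 was the highest sterol gene at 0.78 from 84 UMIs (-0.17 to 1.62), Hsd17b7 the lowest with 23 and 1 UMIs, and Fads1 the lowest fatty acid gene at -0.80 (-1.78 to 0.04). Insig1 was at 0.44 (-0.37 to 1.16), Insig2 at 0.11 (-0.20 to 0.41), Gpam at 0.30 (-0.12 to 0.69) and Acoxl, with 92 and 3 UMIs, at -1.84 (-4.14 to -0.25). The pools differed in sex here, so Y-only cells were read apart (177 and 101): the fatty acid median was 0.12 and the sterol median 0.29, with 7 of 10 and 8 of 10 measured genes higher, while 54.2% of all genes were higher. Thus Y-only ciliated-like and Y-only AT2-like cells had sterol medians of opposite sign, a difference that was not tested.

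Cluster 10, which joins secretory and AT2 genes (174 and 236 cells), had 10 of 11 fatty acid genes (median 0.345) and 14 of 16 sterol genes (median 0.55) higher in Cre_Pos, while 53.9% of all 11687 genes were higher. Cyp51 was at 19.6, 22.1, 25.1 and 12.2 CPM in Cre_Neg and at 40.1, 46.7, 47.6 and 37.1 in Cre_Pos, without overlap (1.11, 0.64 to 1.604). Acsl4 was at 459 and 803 CPM (0.81, 0.71 to 0.91) and Srebf1 at 54.1 and 80.4 (0.57, 0.28 to 0.88), both without overlap, while Gpam was lower, at 218 and 123 CPM (-0.82, -0.995 to -0.64). Stard4 was at 1.14 (0.55 to 1.76), Acacb, the highest fatty acid gene, at 1.77 from 12 and 77 UMIs, Mvd, the highest sterol gene, at 1.45, Fads2 at -0.20, Lss at -0.38 and Insig2 at -0.19. Acoxl was at 1.49 from 17 and 90 UMIs, but at -0.53 without sublibrary 4. The make-up of the cluster differed between the pools: the 12 AT2 markers summed to 8104 CPM in Cre_Neg and 12959 in Cre_Pos with 11 of 12 higher, and the 12 secretory markers to 23289 and 12159 with 2 of 10 measured ones higher. The part of that shift in the result was not tested.

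**Figure D4:**
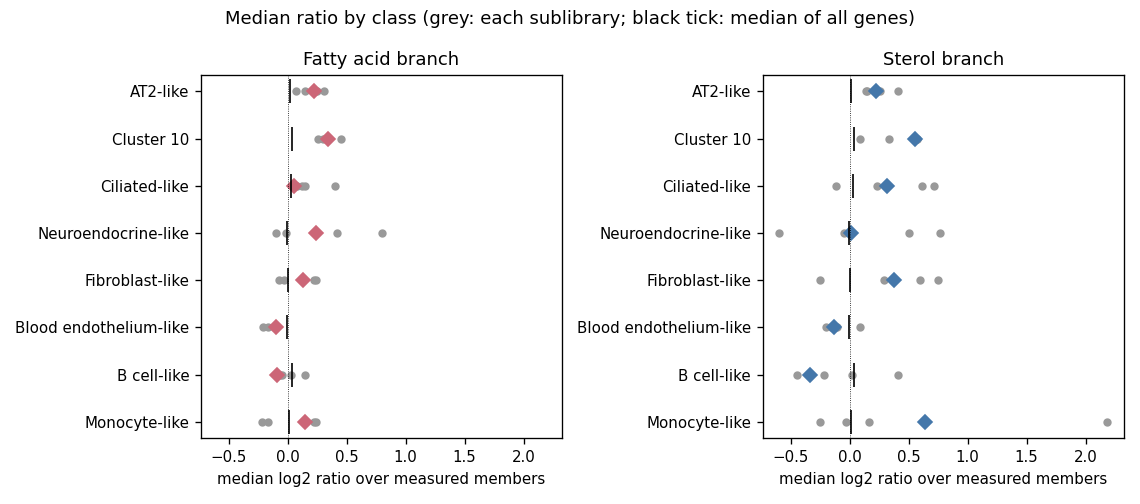
Median log2 ratio of Cre_Pos over Cre_Neg over the measured genes of the fatty acid branch (left) and the sterol branch (right) in the 8 classes with at least 100 cells in each pool. Diamonds are all sublibraries summed, grey points each sublibrary, and black ticks the median of all genes. AT2-like cells, cluster 10 and ciliated-like cells lie right of their tick in all sublibraries of the left panel. Blood endothelium-like cells lie left of theirs.

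The 4 smaller classes gave wide intervals. Neuroendocrine-like cells (136 and 176) had 8 of 11 fatty acid genes higher (median 0.24) and 8 of 15 sterol genes higher (median 0.01), against 49.7% of all genes. Among them Acacb (0.80, 0.22 to 1.43), Acaca (0.41, 0.23 to 0.60), Sqle (0.45, 0.08 to 0.84), Fasn (0.39, 0.0009 to 0.80) and Acsl4 (0.31, 0.09 to 0.54) had the largest ratios among genes with at least 100 UMIs and an interval without 0, and their sublibraries overlapped. Srebf1 was at 54.4 and 69.5 CPM without overlap (0.35, -0.0024 to 0.72). Fads2 (-0.36), Mvk (-0.73) and Insig2 (-0.30) were the lowest of their lists and Hsd17b7 (0.53) and Gpam (0.49) the highest.

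Fibroblast-like cells (138 and 166) had 8 of 11 fatty acid genes (median 0.13) and 12 of 13 measured sterol genes (median 0.37) higher, against 50.4% of all genes. Hmgcs1 was at 32.5 and 51.9 CPM (0.67, 0.21 to 1.15), Fasn at 42.5 and 61.6 (0.54, 0.13 to 0.96), Cyp51 at 28.7 and 41.2 (0.52, 0.02 to 1.04) and Scd2 at 95.4 and 133 (0.48, 0.20 to 0.75), while Scd1 was lower at 33.6 and 20.4 (-0.72, -1.31 to -0.15), but at 1.34 with called doublets kept and 0.11 in Y-only cells. Scd2 was at -0.10 in Y-only cells. Stard4 was at 1.79 from 37 UMIs, Dgat1 at -1.15 from 39, Insig1 at 0.45, Insig2 at -0.09 and Nsdhl at -0.05. B cell-like cells (222 and 183) had 4 of 8 measured fatty acid genes (median -0.09) and 3 of 10 sterol genes higher (median -0.34), against 53.5% of all genes. There Scap was at 0.81 (0.18 to 1.46), and Elovl6 (0.87), Elovl1 (-0.51), Pmvk (0.28), Hsd17b7 (-0.84), Gpam (0.28), Stard4 (-0.55) and Srebf2 (-0.05) had intervals that spanned 0. Monocyte-like cells (134 and 125) had 4 of 6 measured fatty acid genes (median 0.14) and 7 of 9 sterol genes higher (median 0.64), against 51.1% of all genes. That sterol median was at 2.18 in sublibrary 2 and at -0.25, 0.16 and -0.03 in the others, and it was -0.23 without sublibrary 2. Elovl5 was at 187 and 260 CPM without overlap (0.48, 0.20 to 0.76), Srebf2 at 0.39, Insig1 at 0.63 and Dgat1 at 1.29 from 67 UMIs, while Scap was at -1.63 from 36, Fdft1 at -0.78, Elovl6 at -0.57, Stard4 at -0.04 and Pmvk at 1.28 from 21.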

How the data were processed

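The data are single-cell UMI counts from 4 sublibraries of mouse lung that each mix both pools. The counts are as the authors deposited them, whole UMIs per barcode and gene without normalization; the other deposited columns hold names of barcodes, pools, wells and genes and no measurement. Per the labels the build is GRCm39 (submitters' processing notes), while the deposited gene table says mm10, so no coordinates were taken from the files. Neither labels nor headers name an aligner or counter.

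Of the barcodes, 16579 had 500 genes or more, 16541 of them had no more than 15% mitochondrial UMIs, and Scrublet, run in each sublibrary, removed 178 doublets (1.08%). Cells were clustered on variable genes without the lipid genes (scanpy 1.11.5, 30 components, 15 neighbours, Leiden resolution 1) and named where at least 3 markers passed. Endothelial and fibroblast types were merged. UMIs were summed per class and pool and divided by the class total (CPM); a gene was measured with at least 20 UMIs over both pools. Ratios have exact conditional binomial 95% intervals, and sums exact Poisson ones. A pool without UMIs of a gene was set to a floor of 3 counts. No test of genotype is possible with 1 pool each. Kept depth per sublibrary and pool was 17660882 to 25767223 UMIs. Counts for AT2-like cells (15263 genes) were also simulated with counting error alone, which is the model of the intervals. A coverage near 95% was therefore built in, and it was 95.5%. The simulation says nothing about spread between cells, sublibraries or mice. Changes of 1.2-fold were set only in genes with at least 100 UMIs, and 98.0% of the genes so changed had the right sign.

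Genes are named by a fixed rule: the 10 genes of AT2-like cells and the 5 of every other class with at least 100 cells in each pool that had the largest ratios among those with at least 100 UMIs and an interval without 0, with the highest and lowest of each list, and across classes the 4 of each list highest in AT2-like cells over the median class and those with another leading class. Other named genes were chosen after their values were seen. Members, lists and rules were chosen with earlier results of these data known. Alternatives were the scaling, UMI minimum, per-cell averaging, doublets, the mitochondrial limit, clustering genes, cluster weights, sublibraries left out or blocked, and sex; a depth window and the removal of cluster 24 were chosen after seeing the data. Same-numbered sublibraries of the pools share a library, which is where the pairing comes from.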

Additional observations from a re-analysis of the deposited data

Results flagged for a closer look

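Some values met preset limits for a closer look, namely a sublibrary far from the other 3 or opposite signs in 2 groups; chance gives about 1 in 20 groups a sublibrary that stands apart, and no cause was tested. A sublibrary stood apart in the fatty acid sum of Cre_Pos AT2-like cells (6284 CPM, with sublibrary 4 at 7048), in the transport and glycerolipid sum of Cre_Neg B cell-like cells (132 CPM) and of Cre_Pos neuroendocrine-like cells (228 CPM), in the SREBP control median of B cell-like cells (0.34), in the sterol median of monocyte-like cells (0.64, with sublibrary 2 at 2.18), in Fasn of blood endothelium-like cells (-0.43) and in Insig2 of ciliated-like cells (0.11).

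In other cases every sublibrary of 1 group lay above 0 and every sublibrary of the other below 0, and the difference itself was not tested. The fatty acid median differed in this way from that of blood endothelium-like cells in AT2-like cells (a gap of 0.32 on the log2 scale), ciliated-like cells (0.15, although that median was -0.02 with the sublibrary block) and cluster 10 (0.44). The transport and glycerolipid median of AT2-like cells differed likewise from that of blood endothelium-like cells (0.29). The sterol median of AT2-like cells was above 0 in Xist-only and below 0 in Y-only cells in all 4 sublibraries, a gap of 0.71.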

How the results depend on the processing

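Ratios are log2. In AT2-like cells the fatty acid median (0.22) ran from 0.11 to 0.24 with each sublibrary left out in turn and the sterol median (0.22) from 0.19 to 0.31. The fatty acid median was 0.58 with clusters weighted equally, 0.11 in the depth window and -0.11 in Y-only cells, where the sterol median was -0.46. Genes at least 1.2-fold higher (10) numbered 6 to 14 with a sublibrary left out, 19 with per-cell means, 16 with doublets kept, 26 with clusters weighted equally, 4 in the window and 2 in Y-only cells; those lower (0) numbered 0 to 0, then 2 with clusters weighted equally and 18 in Y-only cells. Y-only cells reversed Fdps (-0.37), Sqle (-0.20), Fdft1 (-0.39), Lss (-0.46), Fasn (-0.10), Hsd17b7 (-0.55) and Cyp51 (-0.51), and the window Hsd17b7 (-0.014). In blood endothelium-like cells the fatty acid median (-0.10) was -0.15 with per-cell means, -0.046 with doublets kept, -0.19 in Y-only cells and -0.15 to -0.0535 with a sublibrary left out; the sterol median was 0.34 in Y-only cells and -0.16 to -0.09 with a sublibrary left out, and Fasn was 0.23 with doublets kept. In ciliated-like cells the fatty acid median (0.05) was 0.25 with doublets kept, 0.77 in Xist-only cells (4 in Cre_Pos) and -0.0584 to 0.20 with a sublibrary left out. The sterol median there was 0.11 to 0.32 with a sublibrary left out and 2.07 in Xist-only cells. That 2.07 is the value of Nsdhl, with 111 and 0 UMIs, so it was set by the floor of 3 counts and gives no direction. Reversed in ciliated-like cells were Scd2 (-1.33) and Fads1 (0.20) in Xist-only cells, and Fads1 (0.034), Insig1 (-0.39) and Gpam (-0.47) in the window. Gpam (-0.0598) and Acoxl (2.49) reversed with doublets kept. In Xist-only cells Hsd17b7 (21 and 0 UMIs) and Acoxl (69 and 0) had no Cre_Pos UMIs. Their values of 4.47 and 2.76 come from the floor of 3 counts and give no direction. Elsewhere Y-only cells gave a sterol median of 0.30 in B cell-like cells, from 2 measured genes. In fibroblast-like cells it was -2.24, from Hsd17b7 alone (18 and 3 UMIs), so neither value describes the branch. Y-only cells also gave Scd1 0.11 and Scd2 -0.10 in fibroblast-like cells and Srebf2 -0.96 in monocyte-like cells. They gave Acaca -0.49 and Fasn -0.99 in neuroendocrine-like cells, and Gpam 0.34 in cluster 10, where Xist-only cells gave Acoxl -0.47. Doublets kept gave Scd1 1.34 in fibroblast-like and Gpam -0.0012 in neuroendocrine-like cells, and per-cell means gave Fads2 0.072, Mvk 0.028 and Insig2 0.072 in the latter. With 1 sublibrary left out, values ran from -0.22 (without 4) to 0.42 for Pmvk and from -1.61 to 0.0070 (without 3) for Stard4 in B cell-like cells, from -0.23 (without 2) to 0.66 for the sterol median of monocyte-like cells, from -0.58 to 0.17 (without 2) for Fads2, from -0.65 to 0.015 (without 2) for Insig2 and from -0.027 (without 1) to 2.21 for Hsd17b7 in neuroendocrine-like cells, and from -0.53 (without 4) to 2.52 for Acoxl and from -0.85 to 0.0072 (without 2) for Lss in cluster 10. The pools share each sublibrary. With it as a replicate block the fatty acid and sterol medians were 0.23 and 0.23 in AT2-like cells (13 and 0 genes past 1.2-fold). They were -0.09 and -0.11 in blood endothelium-like cells, and -0.02 and 0.34 in ciliated-like cells. The block reversed Acoxl in cluster 10 (-0.023). Its value for Hsd17b7 in ciliated-like cells (1.99) gives no direction. With 23 and 1 UMIs, most Cre_Pos sublibraries had none of that gene and took the floor of 3 counts. The causes were not tested. Depth limits the smaller classes most, where genes of 20 to 100 UMIs have wide intervals.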
